A study of Mus musculus with 8 samples.

Results

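The 8 genes described here, Alox12b, Aloxe3, Elovl4, Ugcg, Sult2b1, Aqp3, Slurp1 and Krtdap, encode enzymes, a channel and secreted proteins of the epidermal water barrier. They were taken as all probe sets whose only gene symbol in the platform annotation was 1 of these 8, which gave 13 of the 22626 probe sets tested and 8 of 12393 genes. Elovl4 had 2 probe sets, Ugcg and Aqp3 had 3 each, and the other genes had 1. The 8 genes were proposed with their scores in these genotypes already known. Their values are therefore a description with no test, and nothing is supported with them.

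RNA of whole skin from newborn FVB mice was measured on Affymetrix arrays in 4 genotypes, with 2 arrays each. Each array was hybridised with RNA pooled from 3 animals. The labels do not say whether the 2 arrays of a genotype hold separate pools. The wild-type group is labelled pRb+/+, the single-loss groups pRb-/-;p107+/+ and pRb+/+;p107-/-, and the group that lacks both proteins pRb-/-;p107-/-, where pRb is the product of Rb1 and p107 the product of Rbl1, a pair of related proteins that restrain E2F transcription factors. The labels of the pRb+/+ arrays give no p107 genotype, and it is taken here as wild-type. The labels do not say how each gene was inactivated or in which cells, and the series title places the pRb deficiency in the epidermis. Each deposited value is a z-score: every probe set has mean 0 and SD 1 over the 8 arrays. A score of 1 lies 1 SD of that probe set above its own mean, and no score can exceed 2.47 in size. Scores therefore give neither an expression level nor a fold change. In whole skin, fewer cells of a type and less RNA per cell cannot be told apart.

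The barrier against water loss is made by keratinocytes that leave the basal layer and mature through the spinous and granular layers into the cornified layer. They load lamellar bodies with glucosylceramides, cholesterol and phospholipids and secrete them between the cornified cells, where ceramides are released. Acylceramides, which carry an ultra-long fatty acid esterified to linoleate, are oxygenated by epidermal lipoxygenases and become bound to the cornified envelope. Cholesterol sulfate, glycerol and water supply, and small secreted proteins of the suprabasal layers also take part in barrier formation.

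On the arrays as a whole, Rb1 was lowest on both pRb-/-;p107-/- arrays, at -1.56 and -1.28, and highest on the pRb+/+ arrays, at 1.21 and 1.07. The difference passed for loss of both (-2.56 ± 0.27, adjusted p = 0.0391) but not for pRb loss where p107 was kept (adjusted p = 0.266) or lost (adjusted p = 0.17). On this gene pRb-/-;p107+/+ skin, at -0.22 and 0.36, overlapped with pRb+/+;p107-/- skin, at 0.023 and 0.40. The first Rbl1 probe set was lower in p107-/- skin in both backgrounds, at -1.51 and -1.22 against 0.078 and 0.21 where pRb was kept and at -0.31 and 0.31 against 1.30 and 1.14 where it was lost, and neither difference passed (adjusted p = 0.103 and 0.126). Between skin that lacks both proteins and pRb+/+ skin, this Rbl1 probe set overlapped (-0.14 ± 0.25, adjusted p = 0.789, limma linear model). The second Rbl1 probe set differed by -0.97 ± 0.55 there (adjusted p = 0.391, same model). For p107 loss it differed by -2.13 ± 0.55 where pRb was kept and -0.85 ± 0.55 where it was lost, and neither passed. The labels do not place these probes relative to the deleted parts. Arrays of a genotype correlated with r from 0.0365 to 0.35 across probe sets, and arrays of different genotypes with r from -0.417 to 0.076. The 24 poly-A control probe sets averaged from 0.19 to 1.38 on the 4 arrays that keep p107 and from -0.96 to -0.55 on the 4 p107-/- arrays. The 18 hybridization control probe sets split the same way, averaging from -0.035 to 2.05 and from -0.80 to -0.32. Gapdh and beta-actin controls differed along other lines. The 3 Gapdh control probe sets averaged -1.47 and -1.52 in pRb+/+ skin and from -0.031 to 0.84 on the other 6 arrays, and the 3 beta-actin control probe sets were lowest on the pRb-/-;p107-/- arrays, at -1.003 and -1.08. These differences in controls run alongside the comparisons of pRb loss, p107 loss and loss of both, and their part in the results was not tested.

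Every barrier gene was highest where both proteins were lost. In all 13 probe sets both arrays of this genotype, pRb-/-;p107-/-, lay above the 6 other arrays, and the gap between the lower of the pair and the highest other array ran from 0.75 SD in an Aqp3 probe set to 1.59 SD in a Ugcg probe set. Over all probe sets tested, 6.95% had both arrays of that genotype on top and 11.4% had both at the bottom. Since this genotype was on top in all 13, no other could be. Over all probe sets, both arrays were on top in 7.28% for pRb+/+, 6.1% for pRb-/-;p107+/+ and 8.81% for pRb+/+;p107-/-. The mean score of the 8 genes, with 1 probe set per gene, was 1.52 and 1.30 on the arrays that lack both proteins. It was -0.72 and -0.71 in pRb+/+ skin, -0.19 and -0.16 with only pRb lost and -0.54 and -0.49 with only p107 lost. The same 13 of 13 probe sets had the arrays that lack both proteins on top after quantile normalization and after the array medians were subtracted.

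**Figure D1:**
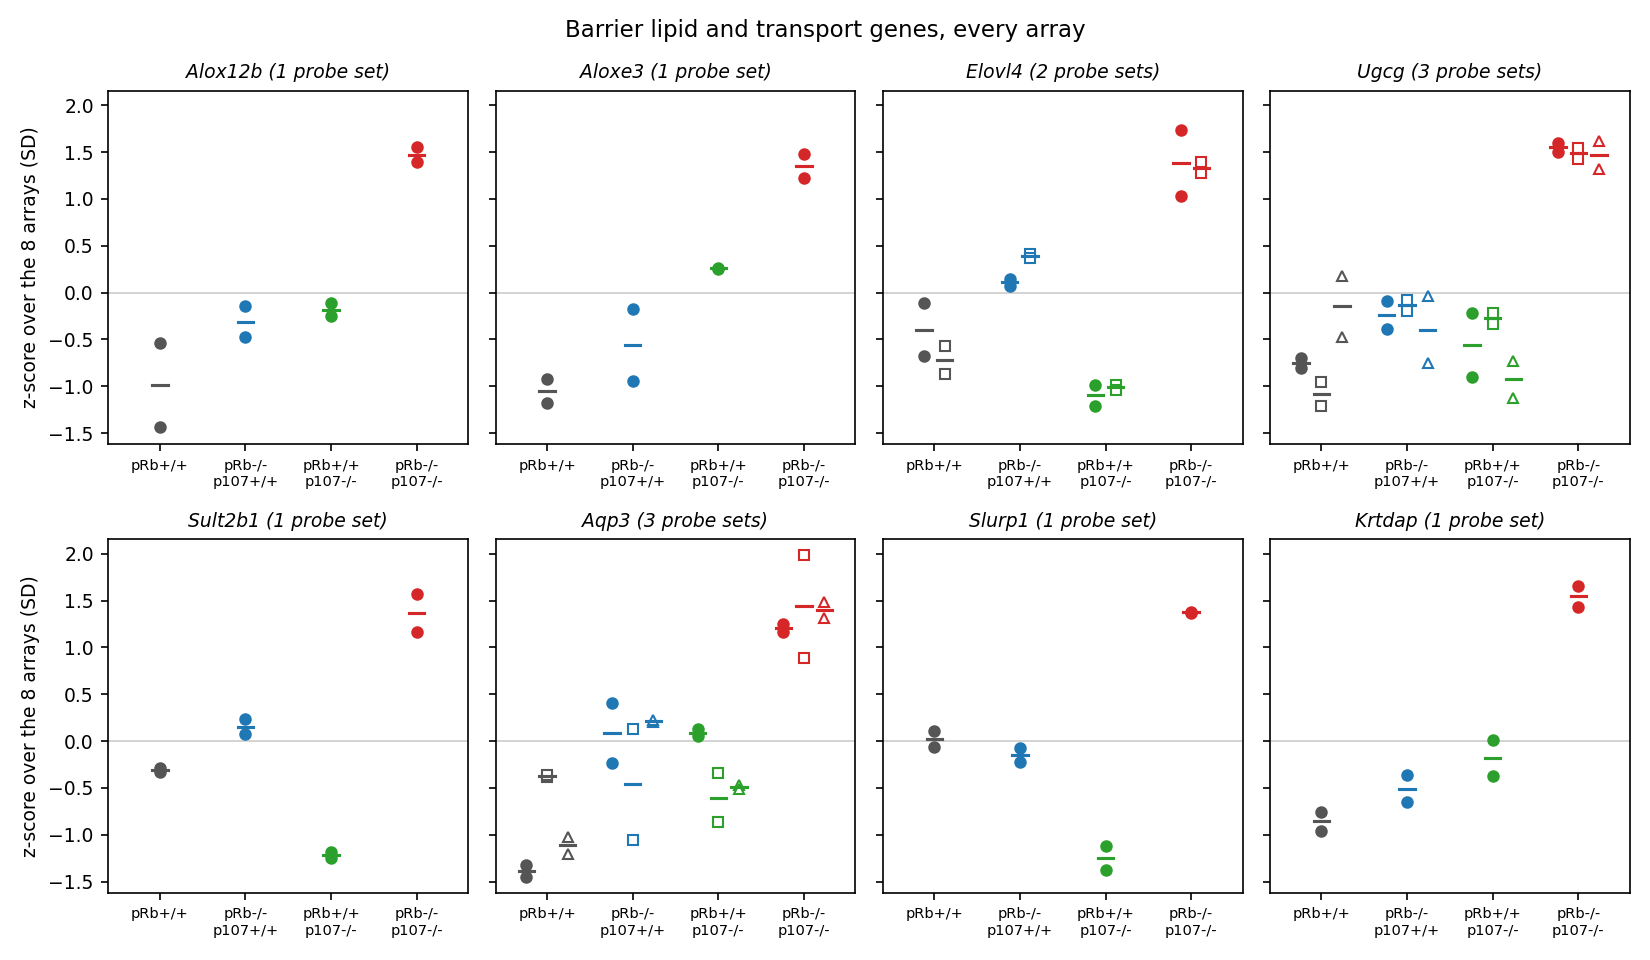
Scores of the 8 barrier genes on each of the 8 arrays, in SD units of each probe set over all arrays. Points are single arrays, horizontal lines are means of the 2 arrays of a genotype, and open symbols are further probe sets of a gene; the arrays that lack both proteins (red) lie above all others in every panel, while the order of the other 3 genotypes differs between genes.

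Promoters of the genes were read from RefSeq windows (GRCm38.p6), because the genes share high scores in skin that lacks both. Windows were found for 6 of the 8 genes, 7 in all, and the 250 bases before the start site were searched on both strands. The AP-1 motif TGANTCA was present in 2 of the 7 windows, those of Sult2b1 and Krtdap, against 6.75% of all 32851 windows, and no other motif searched was found there except a TATA box in Krtdap. The TATA box TATAAA was found for Aqp3 and Krtdap, against 12.4% of all windows, and the KLF motif CACACCC for Alox12b, against 6.93%. The windows of Sult2b1, Krtdap and Aqp3, written 5′ to 3′ with the motif in capitals, are shown because they hold these AP-1 or TATA matches.
Sult2b1, chr7:45742479-45742728, minus strand: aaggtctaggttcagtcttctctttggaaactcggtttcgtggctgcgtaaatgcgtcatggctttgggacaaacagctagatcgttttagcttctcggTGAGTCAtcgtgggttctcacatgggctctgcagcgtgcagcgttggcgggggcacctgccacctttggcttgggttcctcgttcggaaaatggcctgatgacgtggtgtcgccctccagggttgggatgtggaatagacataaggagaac
Krtdap, chr7:30787655-30787904, plus strand: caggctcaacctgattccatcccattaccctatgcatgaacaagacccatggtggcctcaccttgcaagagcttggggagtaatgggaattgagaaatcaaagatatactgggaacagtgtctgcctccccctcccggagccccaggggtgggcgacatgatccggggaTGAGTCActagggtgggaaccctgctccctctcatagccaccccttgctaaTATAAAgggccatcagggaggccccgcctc
Aqp3, chr4:41098184-41098433, minus strand: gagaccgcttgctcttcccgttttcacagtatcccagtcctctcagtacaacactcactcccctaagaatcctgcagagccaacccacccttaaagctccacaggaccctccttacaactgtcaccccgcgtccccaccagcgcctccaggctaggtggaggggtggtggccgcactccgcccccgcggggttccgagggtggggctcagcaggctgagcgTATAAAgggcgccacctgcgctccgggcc

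In these windows the AP-1 match begins at position -151 from the start site in Sult2b1 and at -81 in Krtdap, and the TATA box at -30 in Krtdap and at -29 in Aqp3. The second Sult2b1 window held none of the motifs. The E2F motifs TTTGGCGC, TTTCGCGC and TTTCCCGC were in 0 of the 7 windows, against 0.417%, 0.256% and 0.895% of all windows. CCAAT (33.8%), the C/EBP motif TTGCNNAA (9.56%), the GRHL motif AACCGGTT (0.116%), the p63 repeat (0.49%) and the nuclear receptor DR1 repeat (0.0335%) were also in 0 of the 7. A match is a stretch of letters and not a measured site, and the absence of one says only that these letters are not in these windows.

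The lipoxygenases act in sequence: Alox12b encodes the enzyme that oxygenates the linoleate of acylceramide, and Aloxe3 the isomerase that converts its hydroperoxide product. The genes are next to each other on chromosome 11, with Alox8 on the far side of Alox12b. Alox12b scored -1.43 and -0.53 in pRb+/+, -0.15 and -0.47 in pRb-/-;p107+/+, -0.25 and -0.11 in pRb+/+;p107-/- and 1.56 and 1.39 in skin that lacks both. Both single-loss genotypes lay above pRb+/+ and overlapped with each other. Aloxe3 scored -0.93 and -1.18 in pRb+/+, -0.18 and -0.94 in pRb-/-;p107+/+, 0.26 and 0.25 in pRb+/+;p107-/- and 1.48 and 1.22 in skin that lacks both. Here the pRb+/+;p107-/- arrays stood clear of both lower genotypes, which overlapped. Against pRb+/+ skin, the difference with loss of both proteins was 2.45 ± 0.35 (SE of the linear model over 8 arrays) for Alox12b and 2.41 ± 0.30 for Aloxe3. With loss of p107 alone it was 0.80 ± 0.35 and 1.31 ± 0.30.

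Elovl4 and Ugcg encode enzymes of the ceramide branch: Elovl4 elongates the ultra-long fatty acids of acylceramide, and Ugcg adds glucose to ceramide before it enters lamellar bodies. Elovl4 scored -0.11 and -0.67 in pRb+/+, 0.074 and 0.14 in pRb-/-;p107+/+, -1.21 and -0.99 in pRb+/+;p107-/- and 1.73 and 1.03 in skin that lacks both. No neighbouring genotypes overlapped in this order, and the pRb+/+;p107-/- arrays were the lowest. Its second probe set gave the same order, with scores of 1.39 and 1.28 on the arrays that lack both proteins and -0.98 and -1.04 on the pRb+/+;p107-/- arrays. In the pRb+/+ background p107 loss went with an Elovl4 difference of -0.70 ± 0.33, and in the pRb-/- background with one of 1.28 ± 0.33. In the second probe set these were -0.29 ± 0.11 and 0.94 ± 0.11.

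For Ugcg the first probe set scored -0.81 and -0.70 in pRb+/+, -0.39 and -0.086 in pRb-/-;p107+/+, -0.90 and -0.22 in pRb+/+;p107-/- and 1.60 and 1.51 in skin that lacks both. The 2 further Ugcg probe sets scored between 1.32 and 1.62 on the arrays that lack both proteins. Below that the 3 probe sets disagreed: the pRb+/+ arrays were lowest by mean in 2 of them and the pRb+/+;p107-/- arrays in the third. Over the 6 arrays without the loss of both the Ugcg probe sets correlated with r from -0.52 to 0.50, so the order of the other genotypes is not settled for this gene. The difference with loss of both proteins was 2.31 ± 0.27, 2.57 ± 0.12 and 1.62 ± 0.39 in the 3 probe sets.

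Sult2b1 encodes the sulfotransferase that makes cholesterol sulfate. It scored -0.28 and -0.33 in pRb+/+, 0.23 and 0.073 in pRb-/-;p107+/+, -1.24 and -1.18 in pRb+/+;p107-/- and 1.57 and 1.17 in skin that lacks both. No genotypes overlapped. The arrays that lack p107 thus held both the lowest and the highest Sult2b1 scores, with a difference of 2.58 ± 0.15 for pRb loss between them. With p107 kept, the difference for pRb loss was 0.46 ± 0.15.

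Aqp3 encodes a channel for water and glycerol in the membranes of epidermal keratinocytes. Its first probe set scored -1.32 and -1.45 in pRb+/+, -0.24 and 0.41 in pRb-/-;p107+/+, 0.12 and 0.053 in pRb+/+;p107-/- and 1.16 and 1.25 in skin that lacks both. Both single-loss genotypes lay between the extremes and overlapped with each other. Against pRb+/+ skin the difference was 1.47 ± 0.24 for pRb loss, 1.47 ± 0.24 for p107 loss and 2.59 ± 0.24 for loss of both. Aqp3 was the 1 gene of the 8 whose interaction, the difference for p107 loss in pRb-/- skin minus that in pRb+/+ skin, was negative, at -0.35 ± 0.33, but it was 0.073 after quantile normalization, 0.11 with array medians subtracted and 0.78 as the mean of its 3 probe sets. A further probe set resembled the first (r = 0.92 over 8 arrays), but its single-loss genotypes did not overlap. They scored 0.20 and 0.22 in pRb-/-;p107+/+ and -0.47 and -0.52 in pRb+/+;p107-/-. Its difference for p107 loss in pRb+/+ skin was 0.62 ± 0.09 and its interaction 0.57 ± 0.13. The third probe set did not separate the 3 lower genotypes and scored 1.99 and 0.89 on the arrays that lack both proteins.

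Slurp1 and Krtdap encode small proteins secreted by suprabasal keratinocytes. Slurp1 belongs to the Ly6 family and is mutated in a hereditary palmoplantar keratoderma, and Krtdap is a marker of keratinocytes that begin to differentiate. Slurp1 scored 0.11 and -0.065 in pRb+/+, -0.22 and -0.074 in pRb-/-;p107+/+, -1.12 and -1.37 in pRb+/+;p107-/- and 1.38 and 1.37 in skin that lacks both. Its pRb+/+ and pRb-/-;p107+/+ arrays lay close together without overlapping, and the p107-/- arrays held both ends of the range. The difference for p107 loss was -1.27 ± 0.12 in the pRb+/+ background and 1.52 ± 0.12 in the pRb-/- background. Krtdap scored -0.96 and -0.75 in pRb+/+, -0.65 and -0.36 in pRb-/-;p107+/+, 0.013 and -0.38 in pRb+/+;p107-/- and 1.66 and 1.44 in skin that lacks both. The single-loss arrays lay above pRb+/+ and overlapped with each other, and the difference with loss of both proteins was 2.40 ± 0.20.

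Outside the arrays that lack both proteins the 8 genes thus did not share 1 pattern. The lowest genotype by mean was pRb+/+ in 7 probe sets and pRb+/+;p107-/- in 6. Over all 8 arrays the 28 pairs of genes correlated with a median r of 0.81 (0.44 to 0.98), and over the 6 arrays without the loss of both with a median r of 0.061 (-0.89 to 0.94), 15 of 28 being positive. These correlations are descriptions over shared arrays. Elovl4, Sult2b1 and Slurp1 had an r of 0.81 to 0.94 with each other over the 6 arrays. They are the genes lowest in pRb+/+;p107-/- skin, whose arrays are among the 6, so a high r follows in part from this grouping. Aloxe3 and Slurp1 ran opposite over the 6 arrays (r = -0.89), as did Slurp1 and Krtdap (r = -0.74), while Aqp3 and Krtdap ran together (r = 0.81).

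Calls were then counted for each comparison of genotypes. A call was an adjusted p below 0.05 in limma's linear model without moderation, over all 22626 probe sets. Since the genes were chosen from these scores, the counts are given beside the share called over all probe sets and nothing is read from them. With loss of both proteins 9 of 13 probe sets passed, all higher, where 2.94% of all probe sets passed, 1.41% higher and 1.54% lower. All 13 differences were positive, against 52.3% of all, and in all 13 the arrays did not overlap, against 28.5% higher and 26.9% lower of all. With p107 loss in pRb-/- skin 4 of 13 passed, all higher, where 1.37% passed, 0.548% higher and 0.822% lower. They were probe sets of Ugcg, Aqp3, Slurp1 and Krtdap, and all 13 differences were positive, against 47.3% of all. With pRb loss in p107-/- skin 5 of 13 passed, all higher, where 0.256% passed, 0.177% higher and 0.0796% lower. They were probe sets of Elovl4, Ugcg, Sult2b1, Aqp3 and Slurp1. All 13 differences were positive, against 37.4% of all, and in all 13 the arrays did not overlap, against 17.2% higher and 33.7% lower of all. These 3 comparisons share the arrays that lack both proteins. Their signs and lack of overlap follow from these arrays being on top in all 13 probe sets. Limma's moderated test called 0 probe sets in each of them.

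With a single protein lost, no barrier gene probe set passed. For pRb loss where p107 was kept, the linear model called 0% of all probe sets and 0 of 13 here (5 of 13 and 3026 of all at an unadjusted p below 0.05, 0 by limma's moderated test). For p107 loss in pRb+/+ skin it called 0.42% of all probe sets and 0 of 13 here (7 of 13 and 4393 of all at an unadjusted p below 0.05, 0 by the moderated test). The sign of the difference was positive in 10 of 13 probe sets for pRb loss, against 53.7% of all probe sets, and in 7 of 13 for p107 loss, against 58.8%. In 9 of 13 probe sets both pRb-/-;p107+/+ arrays lay above both pRb+/+ arrays, against 23% of all, and in 1 of 13 (Slurp1) both lay below, against 17.4%. In 6 of 13 probe sets, among them those of Krtdap, Alox12b and Aloxe3, both pRb+/+;p107-/- arrays lay above both pRb+/+ arrays, against 35.2% of all probe sets. In 5 of 13, among them those of Sult2b1, Elovl4 and Slurp1, both lay below, against 22.1%. The interaction was positive in 12 of 13 probe sets, against 40.1% of all, and 0% of all probe sets and 0 of 13 passed (9 of 13 and 2964 of all at an unadjusted p below 0.05, 0 by the moderated test). It also includes the arrays that lack both proteins, so its sign is not independent of how the genes were chosen. The Ugcg difference for p107 loss in pRb+/+ skin was 0.19 ± 0.27, and it turned to -0.25 after quantile normalization, to -0.12 with array medians subtracted and to -0.15 without pRb+/+;p107-/- replicate 2.

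**Figure D2:**
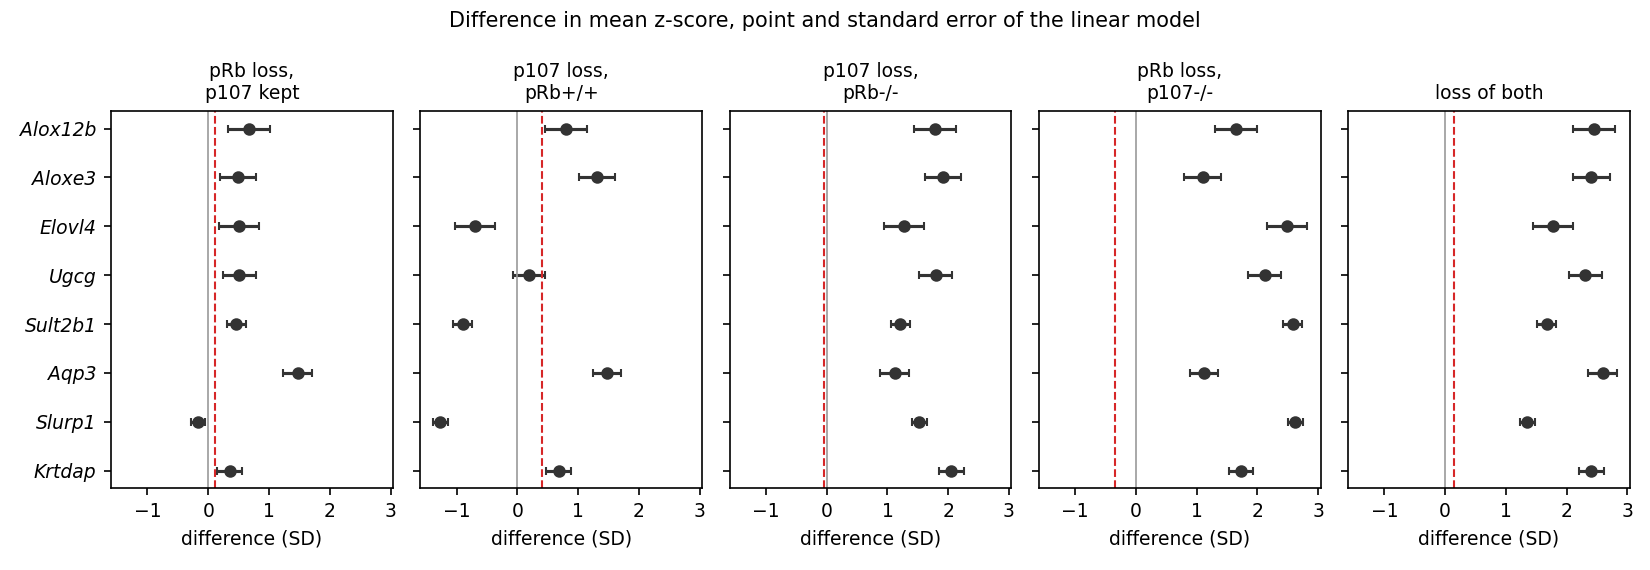
Differences in mean score between genotypes for the 8 barrier genes, 1 probe set each, in SD units; bars are SEs from the linear model over 8 arrays. The dashed red line is the median over 12393 genes; all 8 points lie above it in the 3 comparisons that end in skin that lacks both, and on both sides of it for p107 loss in pRb+/+ skin.

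As a median over the 8 genes, the difference was 0.50 for pRb loss where p107 was kept, 0.43 for p107 loss in pRb+/+ skin, 1.65 for p107 loss in pRb-/- skin, 1.92 for pRb loss in p107-/- skin and 2.36 for loss of both. Over all 12393 genes the medians were 0.10, 0.40, -0.045, -0.34 and 0.14. For p107 loss in pRb+/+ skin the 8 genes went both ways, from -1.27 for Slurp1 to 1.47 for Aqp3, so their median there describes no single gene. Subtracting array medians moved the median of all genes to -0.081, 0.083, 0.11, -0.065 and 0.11 in the same order. Calls rested on the full set of arrays. For loss of both proteins 6 of the 8 single probe sets passed, 2 passed without either pRb-/-;p107+/+ array, and 0 passed without any 1 of the pRb+/+, pRb+/+;p107-/- or pRb-/-;p107-/- arrays. For p107 loss in pRb-/- skin and for pRb loss in p107-/- skin 2 of 8 passed, and 0 when any 1 of the 8 arrays was left out. Other settings also changed these counts. For loss of both, 1 of 8 passed after quantile normalization, 4 with array medians subtracted, and 0 with the compared genotypes alone. For p107 loss in pRb-/- skin 0 passed under each of these, and for pRb loss in p107-/- skin 2 passed after quantile normalization and 0 under the others. More passed when genes were tested by the mean over their probe sets. That gave 7 of 8 for loss of both, 3 for p107 loss in pRb-/- skin and 4 for pRb loss in p107-/- skin.

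Other genes of barrier lipids and transport, from a list that leaves out the 8, changed in both directions. Of 115 listed genes 85 were on the array, each counted by 1 probe set. With loss of both proteins 8 rose, 7 fell and 70 did not pass, where 2.89% of all genes passed (limma linear model, adjusted p below 0.05), and the median difference was 0.69 against 0.14 over all genes. In 19 of the 85 both arrays of that genotype lay above the 6 others, against 7.61% of all genes, and in 10 below, against 11.5%. With p107 loss in pRb-/- skin 2 rose, 5 fell and 78 did not pass, where 1.44% of all genes passed, with a median of 0.31 against -0.045. Elovl1 and Lypd3 were the genes that rose there, and Scd1, Cers4, Elovl6, Acer1 and Ephx1 those that fell. A further Scd2 probe set, not the 1 counted, also fell there (-2.11 ± 0.19, adjusted p = 0.0421). With p107 loss in pRb+/+ skin Hsd17b12 rose and Scd1 fell (-0.89 ± 0.06), where 0.371% of all genes passed. With pRb loss in p107-/- skin Scd1 fell (-1.20 ± 0.06), where 0.323% of all genes passed. With a single array left out, loss of both gave 6 calls where the array was a pRb-/-;p107+/+ array, and 0 where it was any 1 of the 6 others. For p107 loss in pRb-/- skin 1 gene passed without either pRb+/+ array and 0 without any 1 of the 6 others.

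Genes of ceramide and acylceramide synthesis moved in opposite directions with loss of both proteins: of 23 on the array, 5 rose, 6 fell and 12 did not pass, with a median of -0.46. Genes that rose were the serine palmitoyltransferase subunit gene Sptlc1 (2.46 ± 0.26, adjusted p = 0.0396), the dihydroceramide desaturase genes Degs1 (2.54 ± 0.30, with 0.49 in its other probe set) and Degs2 (2.45 ± 0.26), the very-long-chain elongase gene Elovl1 (2.57 ± 0.10, adjusted p = 0.0112) and Hsd17b12 (2.07 ± 0.09, adjusted p = 0.0121), a reductase of the elongation cycle. The 3 further Sptlc1 probe sets gave 1.59, 1.23 and 1.76 and did not pass. Elovl1 scored -1.02 and -1.25 in pRb+/+, -0.36 and -0.37 in pRb-/-;p107+/+, 0.10 and 0.042 in pRb+/+;p107-/- and 1.503 and 1.36 in skin that lacks both. That is the order of Alox12b, Aloxe3 and Krtdap. The 2 other Elovl1 probe sets were also highest on the arrays that lack both proteins but had their lowest mean in pRb+/+;p107-/- skin, as Elovl4 and Sult2b1 did. Hsd17b12 differed in pattern: it was at -1.63 and -1.53 in pRb+/+ and between 0.16 and 0.84 in all other skin, and it also rose with p107 loss in pRb+/+ skin (1.85 ± 0.09, adjusted p = 0.0371), where its other probe set did not pass (1.14 ± 0.28, adjusted p = 0.164).

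Genes of the same list that fell, with adjusted p from 0.00889 to 0.0499, were the desaturase gene Scd1 (-2.09 ± 0.06, adjusted p = 0.00889), the ceramide synthase gene Cers4 (-2.34 ± 0.12), the elongase genes Elovl3 (-1.95 ± 0.23) and Elovl6 (-1.92 ± 0.12), the fatty acid hydroxylase gene Fa2h (-2.21 ± 0.28) and the dehydratase gene Hacd3 (-2.56 ± 0.30, with the opposite sign in 1 of its 2 other probe sets). The 2 further Cers4 probe sets gave -1.81 and -1.98 and did not pass. Scd1, Elovl3, Fa2h and Cers4 are also known for expression in sebaceous glands or hair follicles. Scd1 scored 0.71 and 0.62 in pRb+/+, 1.04 and 0.94 in pRb-/-;p107+/+, -0.19 and -0.27 in pRb+/+;p107-/- and -1.40 and -1.44 in skin that lacks both, and this probe set passed in each comparison except pRb loss where p107 was kept and the interaction. The second Scd1 probe set had the same signs in the 4 comparisons but passed only for p107 loss in pRb-/- skin (-2.55 ± 0.23, adjusted p = 0.0407), with -0.99 for loss of both (adjusted p = 0.116), -0.84 for pRb loss in p107-/- skin (0.311) and -0.15 for p107 loss in pRb+/+ skin (0.749). The 9 sebocyte markers averaged 0.53 and 0.30 in pRb+/+, 0.18 and 0.63 in pRb-/-;p107+/+, -0.43 and -0.16 in pRb+/+;p107-/- and -0.62 and -0.41 in skin that lacks both, and Elovl3 is on that list too. The 12 hair follicle markers averaged 0.97 and 1.05, 0.38 and 0.46, -0.47 and -0.41, and -0.98 and -1.001 in the same order. With loss of both, 2 of the 9 sebocyte markers (Elovl3 and Cidea) and 9 of the 12 hair follicle markers fell, and none rose. Of all genes 2.89% passed, in either direction. The part of sebaceous or follicle cells in the lower scores was not tested.

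Of 18 genes of ceramide processing and lamellar bodies, 1 probe set each, 1 rose, 1 fell and 16 did not pass with loss of both proteins. Their median was 0.98. A further Psap probe set, not the 1 counted, did pass (1.91 ± 0.23, adjusted p = 0.0454, limma linear model). The secreted phospholipase gene Pla2g2f rose (2.46 ± 0.29, adjusted p = 0.0445) and the alkaline ceramidase gene Acer1 fell (-2.29 ± 0.21, adjusted p = 0.0319). Of 8 genes of lipoxygenases and their products 0 passed with loss of both (2 at an unadjusted p below 0.05, 0 by the moderated test), and the epoxide hydrolase gene Ephx1 fell with p107 loss in pRb-/- skin (-2.28 ± 0.21, adjusted p = 0.0429). Alox8, named for its place next to Alox12b, differed by -1.14 ± 1.11 with loss of both and did not pass. Its scores were -0.96 and 1.499 in pRb+/+, -0.69 and 1.10 in pRb-/-;p107+/+, 0.45 and 0.36 in pRb+/+;p107-/- and -0.51 and -1.24 in skin that lacks both, so the arrays of pRb+/+ skin alone spanned most of its range.

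Of 12 sulfotransferase and sulfate genes, 1 probe set each, 0 passed in any comparison (0 to 2 at an unadjusted p below 0.05, 0 by the moderated test). A further Papss2 probe set, not the 1 counted, did pass for loss of both (2.00 ± 0.23, adjusted p = 0.043, limma linear model). Among the 12 counted probe sets the largest difference with loss of both was 1.68 ± 0.77 for Sult1c1. With p107 loss in pRb-/- skin it was -2.20 ± 0.73 for Sult1a1. Of 17 genes of water, glycerol and ion transport the taurine transporter gene Slc6a6 rose with loss of both (2.52 ± 0.32, adjusted p = 0.0493) and 16 did not pass. The 2 further Slc6a6 probe sets gave 2.02 and 0.82 and did not pass. Of the 17 genes 14 had a positive difference, against 53.3% of all genes. Of 7 genes of the Ly6 family and the neighbourhood of Krtdap, the Ly6-type adhesion gene Lypd3 rose (2.20 ± 0.18, adjusted p = 0.0267). It scored 1.76 and 1.44 on the arrays that lack both proteins and between -0.77 and -0.34 on all others. Dmkn, named for its place next to Krtdap on chromosome 7, differed by 2.34 ± 0.30 and did not pass (adjusted p = 0.0509). Ly6g6d went the other way (-2.14 ± 0.31, adjusted p = 0.0585). Of these 7 genes 5 had a positive difference and 2 a negative one. Aqp7, next to Aqp3 on chromosome 4, had both arrays that lack both proteins below the 6 others and differed by -0.69 ± 0.36 (adjusted p = 0.36).

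**Figure D3:**
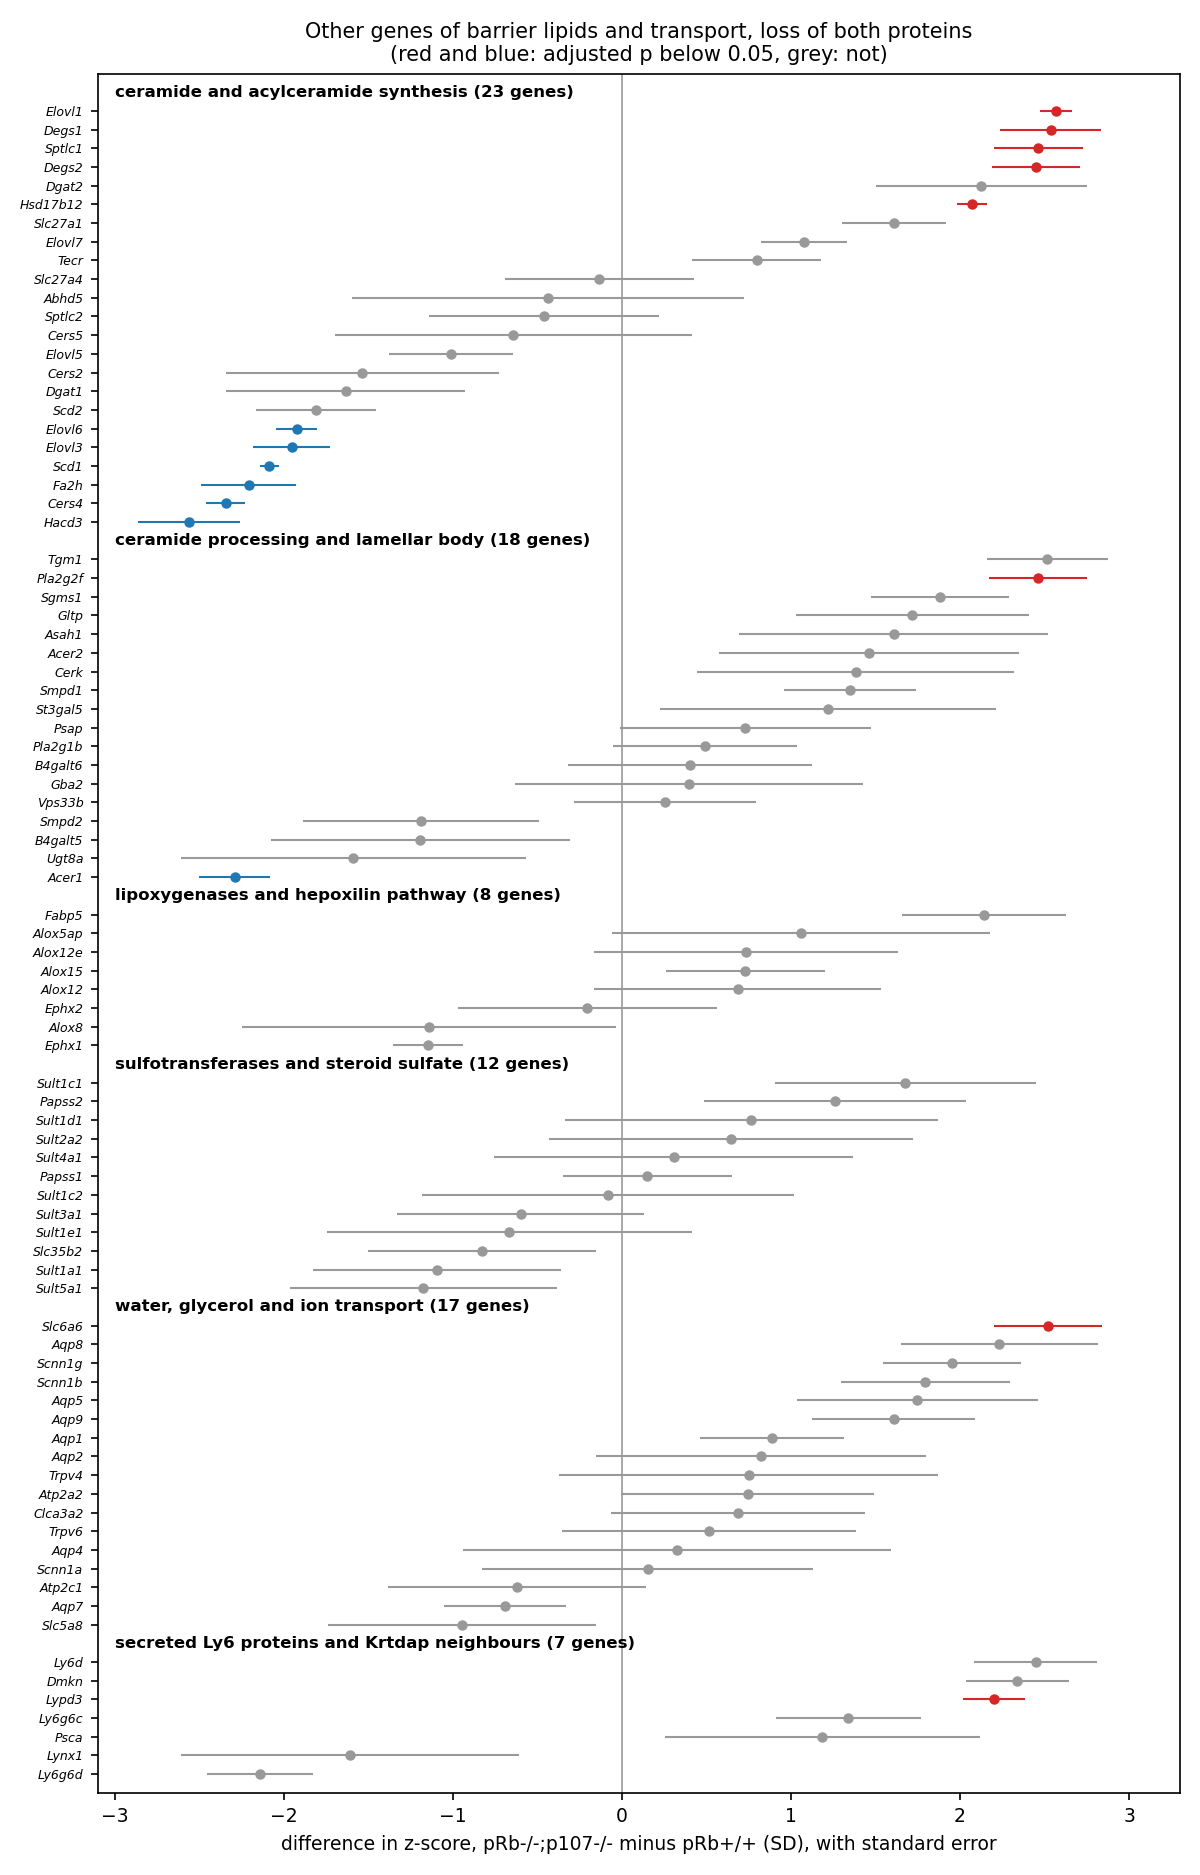
Differences in score between pRb-/-;p107-/- and pRb+/+ skin for 85 other genes of barrier lipids and transport, by role, in SD units; bars are SEs from the linear model. Red and blue points passed an adjusted p of 0.05; the 11 of the ceramide synthesis group split into 5 higher and 6 lower.

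The barrier genes were set beside markers of the cells in whole skin. The 11 spinous and granular markers averaged -0.65 and -0.81 in pRb+/+, -0.40 and -0.17 in pRb-/-;p107+/+, 0.030 and -0.17 in pRb+/+;p107-/- and 1.17 and 1.003 in skin that lacks both. With loss of both proteins all 11 had positive differences, against 53.3% of all genes. Of the 11, 3 rose (Dsc1, Sprr1b and Rptn) and 8 did not pass, with a median of 1.64. Over all genes 2.89% passed in this comparison. The 8 basal keratinocyte markers averaged -0.49 and 0.22 in pRb+/+ and 0.50 and 0.16 in skin that lacks both, ranges that overlap, and 0 of 8 passed. The 6 fibroblast markers averaged -0.66 and -1.31 and the 7 adipocyte markers -0.62 and -0.86 on the arrays that lack both proteins, and 0 of either list passed. The adipocyte markers were close to this in pRb+/+ skin, at -0.59 and -0.35. With loss of both, 3 of the 7 had positive differences and 4 negative ones. The 6 skeletal muscle markers averaged -0.12 and -0.63 there, and 0 passed. The 6 haematopoietic markers averaged 0.61 and 0.59 there against -0.90 and -0.77 in pRb+/+ skin, and 2 rose, the mast cell genes Cpa3 and Tpsab1. Skin of this genotype thus had the highest barrier and suprabasal scores and the lowest hair follicle and fibroblast scores. Its adipocyte scores were lowest only by a small margin over pRb+/+ skin. The part of the cell makeup in the barrier gene scores was not tested. Because scores hold no level, whether a marker is present or absent cannot be read from them.

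**Figure D4:**
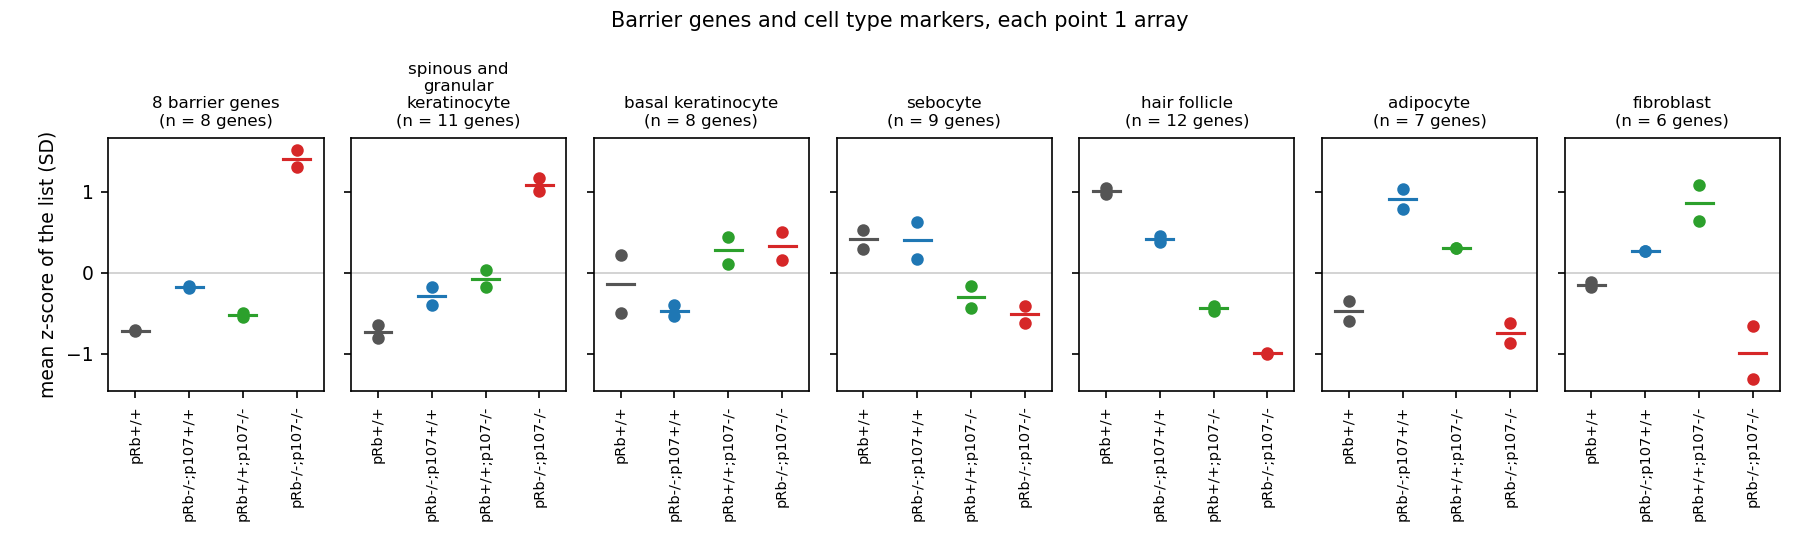
Mean score of the 8 barrier genes and of 6 lists of cell type markers on each array, in SD units; each point is 1 array and each line the mean of a genotype. The barrier genes and the spinous and granular markers are highest on the arrays that lack both proteins, and the hair follicle and fibroblast markers are lowest there. The adipocyte markers are also lowest there, but close to those of pRb+/+ skin.

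Genes with the most similar pattern were ranked by Pearson's r over the 8 arrays, as a description over shared arrays. The mean of the 8 barrier genes was followed most closely by Cyp2b10 (r = 0.996), the cornified envelope genes Sprr2d (0.993) and Sprr2h (0.993), Calm4 (0.993), a calcium-binding protein gene, and the suprabasal keratin gene Krt77 (0.992). Of 20367 probe sets compared, 233 (1.14%) had an r above 0.9. The closest single match was Dnmt1 for Alox12b (0.995), 2310050C09Rik for Aloxe3 (0.991), Ndufa4 for Elovl4 (0.984), Calm4 for Ugcg (0.987), Errfi1 for Sult2b1 (0.992), Mpzl2 for Aqp3 (0.982), Trp53inp1 for Slurp1 (0.981) and Cbx2 for Krtdap (0.989). The other probe sets of several of these matches did not follow: r was 0.36 for the other Dnmt1 probe set, 0.096 for that of Cbx2 and -0.035 and 0.24 for those of Mpzl2.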

How the data were processed

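RNA of whole newborn skin was measured on 8 mouse Affymetrix arrays, 2 per genotype, each of RNA pooled from 3 animals. RMA is named in the submitters' processing notes, with no version. The deposited values are scores: tested on the values, each probe set has mean 0 and SD 1 over the 8 arrays, and nothing read here says whether log or linear values were standardized. Array medians ran from -0.25 to 0.22. The number of arrays limits the precision, and p-values measure only the spread between duplicate arrays.

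Of 22690 probe sets 64 controls were left out. Of the other 22626, 20380 have 1 gene symbol, 691 several and 1555 none. A linear model with 1 coefficient per genotype (limma 3.58.1, R 4.3.3; 4 residual degrees of freedom) gave differences and SEs, tested without moderation, since standardization ties each probe set's variance to its differences, and adjusted by Benjamini-Hochberg over all 22626 at 0.05. The script was tested on simulated data. A gene is represented by a probe set with a plain name ending first, then by the lowest number. Named beyond the 8 genes are every listed pathway gene past the threshold, else the largest difference of a role, and the closest patterns by r. The genes and lists were chosen with earlier results of these data known. Alternatives were the moderated test, quantile normalization, median subtraction, a replicate block, the compared genotypes alone, the mean over probe sets and leaving out each array. Replicate numbers did not pair the arrays: deviations of same-numbered arrays correlated from -0.131 to 0.105.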

Additional observations from a re-analysis of the deposited data

Results flagged for a closer look

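For Slurp1, p107 loss went with lower scores on every array in pRb+/+ skin and with higher scores on every array in pRb-/- skin, with differences of -1.27 ± 0.12 and 1.52 ± 0.12. The arrays also parted in opposite directions for pRb loss by p107 status, but where p107 was kept the difference was only -0.17 ± 0.12 (adjusted p = 0.616) and the arrays were 0.0092 SD from overlapping, against 2.62 ± 0.12 where it was lost. The interaction was 2.79 ± 0.17 and did not pass (adjusted p = 0.0765, limma linear model). It did pass when genes were tested by the mean over their probe sets (adjusted p = 0.0472, same model). Slurp1 has 1 probe set, so its interaction was the same there, and only the features over which p was adjusted differed. For Sult2b1 the arrays likewise parted in opposite directions with p107 loss by pRb status, with an interaction of 2.12 ± 0.22 (adjusted p = 0.109). For Elovl4 they did so too, with an interaction of 1.98 ± 0.46 (adjusted p = 0.237) in its first probe set and 1.23 ± 0.16 (adjusted p = 0.131) in its second. In the second the difference for p107 loss in pRb+/+ skin was only -0.29 ± 0.11, and the arrays were 0.12 SD from overlapping. These genes were chosen with their scores known, so the values are descriptions. Genotypes with 2 arrays were not examined for outlying arrays.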

How the results depend on the processing

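All 8 barrier genes had positive differences for loss of both, for p107 loss in pRb-/- skin and for pRb loss in p107-/- skin under every alternative run. These signs follow from the arrays that lack both proteins lying above the 6 others in all 13 probe sets. The moderated test, the replicate block, the compared genotypes alone, the mean over probe sets and leaving out an array could not change them. The counts of calls did not hold, and the cause was not tested. Limma's moderated test called 0 probe sets and 0 other barrier genes for p107 loss in either background, pRb loss in p107-/- skin and loss of both. Quantile normalization gave 171 probe sets for p107 loss in pRb-/- skin and 370 for loss of both, with 9 other genes for loss of both and 0 for pRb loss in p107-/- skin. With array medians subtracted there were 52 probe sets for p107 loss in pRb+/+ skin, 137 in pRb-/- skin and 2 for pRb loss in p107-/- skin, with 0 other genes in the last. These scalings moved the split of calls for p107 loss in pRb+/+ skin from 48.4% higher to 32.9% and 25%, and for pRb loss in p107-/- skin from 69% to 84.4% and 100%. Under them the median of the 8 genes was 0.29 and 0.31 for pRb loss where p107 was kept, -9.5313e-05 and 0.12 for p107 loss in pRb+/+ skin, 2.22 and 2.20 for pRb loss in p107-/- skin and 1.97 and 1.96 for the interaction. The Ugcg difference for p107 loss in pRb+/+ skin turned to -0.25, -0.12 and, without pRb+/+;p107-/- replicate 2, -0.15 (-0.15 to 0.53 with each array left out in turn), and the Aqp3 interaction to 0.073, 0.11 and, as the mean over probe sets, 0.78. With the replicate block, 1 probe set passed for pRb loss with p107 kept, 1 and 2 for p107 loss in pRb+/+ and in pRb-/- skin, 0 for pRb loss in p107-/- skin and 37 for loss of both, with 0, 1, 0 and 2 other genes from p107 loss in pRb+/+ skin on and 0 of the 8 barrier genes in any comparison. With the compared genotypes alone, loss of both gave 1 probe set and the other 3 gave 0, with 0 other genes; the interaction could not be fitted so. The mean over probe sets gave 0 other genes for p107 loss in pRb+/+ skin and pRb loss in p107-/- skin. Leaving out each array in turn gave 0 to 4, 0 to 2, 0 to 17, 0 to 2, 0 to 242 and, for the interaction, 0 to 1 probe sets, with 0, 0 to 1, 0 and 0 to 6 other genes, and medians of the 8 genes of 0.24 to 0.51 for p107 loss in pRb+/+ skin, 1.84 to 2.09 for pRb loss in p107-/- skin and 2.16 to 2.43 for loss of both.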
